A study of Mus musculus with 16 samples.

Results

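Bone marrow-derived macrophages treated with SR9009 alone were compared with vehicle-treated macrophages of the same mice. The comparison held 8 of the 16 RNA sequencing libraries of the study: 4 with DMSO, the solvent, and 4 with SR9009, each set from wild type male C57BL6 mice numbered 1 to 4, with every mouse giving 1 library to each group. The libraries were chosen by their treatment labels. Cells from femurs and tibias had been differentiated into macrophages in medium with L929 cell supernatant, a source of macrophage growth factor, and were then given DMSO or 10 µM SR9009 for 16 hours. The remaining 8 libraries were LPS-treated, 4 of them after SR9009; they shared in the estimate of variance and entered the test of the SR9009 effect with LPS against that without. The labels do not state whether cells that received no LPS were kept for the further 6 hours that the LPS groups spent with it, nor the ages of the mice.

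SR9009 is a synthetic agonist of REV-ERBα and REV-ERBβ, the nuclear receptors encoded by Nr1d1 and Nr1d2. These receptors bind DNA without an activation function and repress transcription by recruiting the NCoR corepressor with HDAC3. They link the circadian clock to metabolism and, in macrophages, to enhancers of chemokine, matrix protease and cytokine genes. A second pathway that shapes resting macrophages is tonic type I interferon signalling, in which a low amount of interferon acts through its receptor IFNAR and JAK kinases and keeps interferon-stimulated genes expressed.

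All 7 macrophage markers examined, among them Adgre1, Csf1r, Cd68 and Mertk, had more than 10 counts in all 8 libraries. Their summed level was 6393 to 10041 CPM (counts scaled to a common library size with TMM factors) with DMSO and 5496 to 8131 CPM with SR9009. The 11 marker lists of other cell types were low in comparison. The highest summed levels were those of the osteoclast list, at 6.42 to 12.0 CPM with DMSO and 0.627 to 14.3 CPM with SR9009, and of the T cell list, at 5.00 to 9.73 and 0.836 to 8.37 CPM. Ly6g, Ncr1, Gzma, Mcpt8, Fcer1a, Gp1bb, Hbb-bs, Hba-a1 and Hba-a2 had no count in any of the 8 libraries. In bulk RNA, fewer cells of a type and less RNA per cell cannot be told apart.

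The SR9009 library of mouse 1 stood apart from the other 7. It had 12616442 counts and 13298 detected genes, against 18539925 to 24214863 counts and 18179 to 18947 genes in the others. Of the 13438 genes tested, 1368 had no count in it, against 65 to 117 in the others. Its counts also followed the GC content of the transcripts. Among 10 equal groups of genes by GC content, those in the lowest group had a median log2 deviation of 1.27 from the mean of the other 7 libraries, and those in the highest −2.35. Counts of called list members are therefore also given without this library (the reduced fit, 15 libraries) and from mice 2, 3 and 4 alone as 3 pairs (the paired fit, 6 libraries).

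**Figure D1:**
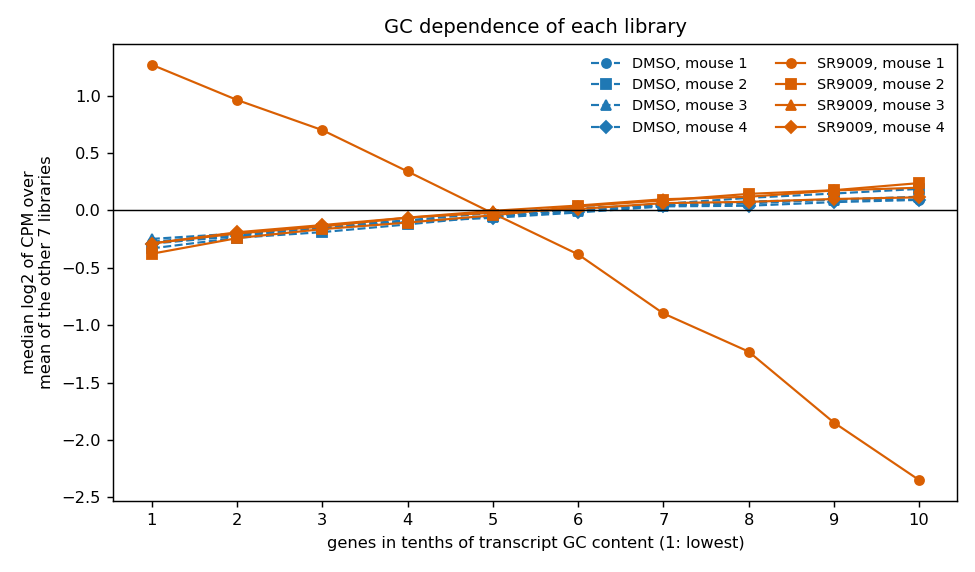
Median log2 of CPM over the mean of the other 7 libraries (vertical axis) for genes sorted into 10 equal groups of transcript GC content (horizontal axis, lowest at 1), 1 line per library, DMSO dashed blue and SR9009 solid orange. The SR9009 library of mouse 1 runs from 1.27 in the lowest group to −2.35 in the highest, while the other 7 lines lie close to each other.

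More genes were lower than higher with SR9009: 42 genes were higher and 76 lower at an adjusted p of 0.05 or less (edgeR quasi-likelihood test on all 16 libraries, Benjamini-Hochberg over 13438 genes). That is 0.313% of the tested genes higher and 0.566% lower, and the median log2 fold change over all of them was 0.0075. All 118 called genes moved the same way in 4 of 4 mice, and for 116 of them the DMSO and SR9009 libraries did not overlap in CPM; the exceptions were Olfr56 and Ifi211, chosen for naming after their values were seen. Over all tested genes, groups did not overlap for 4.9% with SR9009 higher and 4.64% with SR9009 lower.

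Without the SR9009 library of mouse 1, 95 genes were higher (0.696%) and 147 lower (1.08%), and 37 of the 42 higher and 74 of the 76 lower genes were still called. With mouse number in the model the counts were 69 higher (0.513%) and 129 lower (0.96%). The 3 pairs of mice 2 to 4 fitted alone gave 496 higher (3.76%) and 500 lower (3.79%), among them 41 of the 42 and 55 of the 76. The calls depended on which of the 4 mice were used. Leaving out mouse 1 with all its libraries gave 76 genes higher and 118 lower of 13583 tested. When mouse 2, 3 or 4 was left out with all its libraries, 4, 1 and 1 genes were called higher (0.0296%, 0.00745% and 0.00743%) and 5, 17 and 0 lower (0.037%, 0.127% and 0%; edgeR, with 1030 genes at an unadjusted p under 0.05 without mouse 4). In a fit of the 8 libraries alone, 4 genes were called: Gsta3 and Ednrb higher (0.0153%), and Cx3cr1 and Gm4951 lower (0.0153%). DESeq2 called 0.953% of genes higher and 1.51% lower, and limma-voom 0.26% and 0.499%. At an unadjusted edgeR p under 0.05, 7.96% of all genes were higher and 3.72% lower. P-values of the fits without mouse number refer to the spread between libraries within the groups fitted. Such fits treat the libraries of 1 mouse as independent. With mouse number in the model, and in the paired fit, they refer to the spread left after differences between mice. No p-value here reaches beyond these 4 mice.

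Of the 76 genes that fell, 37 were members of a list of 97 tested genes of the interferon response. The list holds interferon-stimulated genes and also receptor and signalling genes of the pathway. The interferon-stimulated response element, searched on both strands as GAAA, any 2 bases and GAAA again, is bound by factors of the IRF family. In the 250 bases before the start site it was found in 21 of 32 RefSeq promoters (65.6%) of called members of the interferon list, in 16 of 61 promoters (26.2%) of its tested but uncalled members, in 25 of 70 promoters (35.7%) of all genes that fell, and in 367 of 12409 promoters (2.96%) of all tested genes. Most of the list was assembled from known interferon targets, so the element is expected in it by construction. None of its 4 tested ligand and receptor genes and 2 of its 11 signalling genes were called. Such genes therefore weigh more among the uncalled members. The called members of the list supplied 21 of the 25 promoters with the element among all genes that fell. The share of 35.7% is therefore not a separate result. Promoters were matched by symbol for 77 of the 97 tested members, and some genes have several. A promoter of each of 4 called members is shown, 5′ to 3′ with respect to the gene, with the element in capitals; a match is a description of letters and not a measured binding site. The coordinates are those of build GRCm38.p6: chr19:34583279-34583528, plus strand for Ifit3; chr12:26456453-26456702, minus strand for Rsad2; chr3:142620413-142620662, plus strand for Gbp2; and chr5:92348890-92349139, minus strand for Cxcl10.
Ifit3: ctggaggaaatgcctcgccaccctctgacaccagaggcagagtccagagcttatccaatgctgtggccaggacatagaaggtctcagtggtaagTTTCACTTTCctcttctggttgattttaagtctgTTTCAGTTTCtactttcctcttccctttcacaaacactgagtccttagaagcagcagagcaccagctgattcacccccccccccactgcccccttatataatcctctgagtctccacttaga
Rsad2: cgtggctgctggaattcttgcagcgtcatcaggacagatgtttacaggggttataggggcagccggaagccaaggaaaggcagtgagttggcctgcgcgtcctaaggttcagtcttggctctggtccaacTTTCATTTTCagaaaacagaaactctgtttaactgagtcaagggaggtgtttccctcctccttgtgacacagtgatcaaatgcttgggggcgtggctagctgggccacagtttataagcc
Gbp2: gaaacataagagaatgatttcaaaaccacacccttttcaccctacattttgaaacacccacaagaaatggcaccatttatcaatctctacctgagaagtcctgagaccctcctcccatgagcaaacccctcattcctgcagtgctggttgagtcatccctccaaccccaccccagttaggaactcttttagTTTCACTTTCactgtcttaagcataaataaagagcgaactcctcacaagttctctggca
Cxcl10: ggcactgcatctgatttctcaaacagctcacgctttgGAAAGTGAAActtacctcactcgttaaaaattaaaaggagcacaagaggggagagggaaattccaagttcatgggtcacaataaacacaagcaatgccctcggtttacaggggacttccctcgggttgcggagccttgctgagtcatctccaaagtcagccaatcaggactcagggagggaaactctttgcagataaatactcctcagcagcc

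Of the 97 tested members of the interferon list, 37 fell and none rose, with a median log2 fold change of −1.39. Without the SR9009 library of mouse 1, 57 of 98 fell and none rose, and in the pairs of mice 2 to 4, 53 of 93 fell and none rose. The summed level of the list was 13025, 16650.0, 8814 and 10754 CPM in the DMSO libraries of mice 1 to 4 and 6698, 6936, 6386 and 5624 CPM in their SR9009 libraries. The SR9009 libraries lay within a narrow range below all DMSO libraries, whereas the DMSO libraries differed between mice, highest in mouse 2 and lowest in mouse 3. The median log2 ratio within a mouse, taken after adding 0.5 CPM to both libraries, was −1.74, −1.76, −0.71 and −1.26 for mice 1 to 4. The number of calls varied with the libraries used: 4, 15 and 0 members were called lower without mouse 2, 3 or 4, and 0 of 93 in the fit of the 8 libraries alone (edgeR). At an unadjusted p under 0.05, 64, 74, 69 and 69 members were lower in these 4 fits and none was higher, where 2.86%, 2.52%, 2.42% and 3.13% of all genes were lower.

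**Figure D2:**
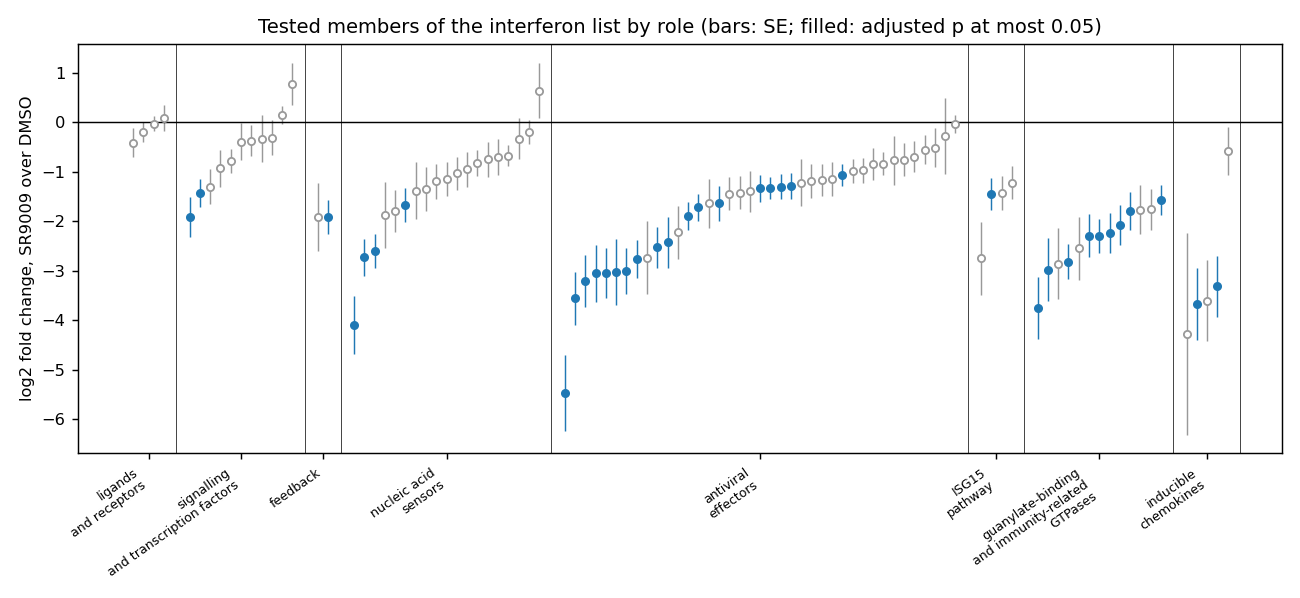
Log2 fold change of SR9009 over DMSO (vertical axis) with its SE for each of the 97 tested members of the interferon list, grouped by role along the horizontal axis and sorted within a role. Filled blue points have an adjusted p of 0.05 or less; all 37 lie below 0.

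At the top of the pathway little was measured. The interferon β gene Ifnb1 had 0, 1, 1 and 1 counts with DMSO and 0 in all SR9009 libraries, and Ifng, the type II interferon gene, had none in any, so no fold change is given. The receptor chain gene Ifnar1 stood at 202, 209.8, 186 and 181 CPM with DMSO and 179.6, 209, 181 and 197 CPM with SR9009, 2 overlapping groups. None of the 4 tested ligand and receptor genes was called by edgeR, and none had an unadjusted p under 0.05 or was called by DESeq2 or limma-voom.

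Downstream, Irf7, the factor that amplifies interferon production, went from 146, 292, 117 and 174 CPM with DMSO to 15.7, 72.4, 66.5 and 38.4 CPM with SR9009 (log2 fold change −1.92, SE 0.40, edgeR adjusted p = 0.0349), with no overlap. Usp18, which encodes the feedback inhibitor of the receptor, went from 57.1, 74.0, 35.6 and 62.3 CPM with DMSO to 7.80, 15.3, 21.5 and 16.3 CPM with SR9009 (log2 fold change −1.91, SE 0.34, edgeR adjusted p = 0.0141). The groups were apart for this gene too. Of the 11 signalling genes 2 fell (2 in the reduced fit, 3 in the paired fit), and of the 2 feedback genes 1 (1 and 0).

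Nucleic acid sensors fell in 4 of 19 tested cases, in 11 of 19 in the reduced fit and in 14 of 19 in the paired fit. Zbp1, a sensor of Z-form nucleic acid that triggers cell death, had 76.6, 137, 38.0 and 58.2 CPM with DMSO and 8.15, 18.1, 14.5 and 10.4 CPM with SR9009 (log2 fold change −2.59, SE 0.34, edgeR adjusted p = 0.00414). The DMSO and SR9009 libraries did not overlap. Ifi213, of the p200 family of DNA-binding proteins, had 22.9, 48.7, 14.9 and 19.5 CPM with DMSO and 5.50, 4.13, 4.23 and 2.24 CPM with SR9009 (log2 fold change −2.73, SE 0.37, edgeR adjusted p = 0.00414). Ifi203, Ifi204, Ifi209 and Mndal, 4 further p200 genes chosen after their values were seen, were called lower in the fit that lacked the SR9009 library of mouse 1 (edgeR adjusted p = 0.00494, 0.0107, 0.0306 and 0.00217); in that library they stood at 131, 164, 123 and 182 CPM, against at most 68.9 CPM in the other 3. With GC correction all 4 passed (adjusted p = 0.00257, 0.00817, 0.0151 and 0.00563), and with mouse number in the model Ifi203 and Ifi209 did (0.0300 and 0.0193). The p200 genes lie in a cluster of similar sequences and the counting tool is not given in the sources used here, so the split of reads between them is uncertain.

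Antiviral effectors were the largest role, with 18 of 39 tested members lower, 27 in the reduced fit and 24 in the paired fit. Ifit3, whose product binds viral RNA together with IFIT1 (ENSMUSG00000074896, GRCm39 chromosome 19, 34560931 to 34566131), had 186, 261, 54.8 and 113 CPM with DMSO and 18.5, 22.2, 15.1 and 10.8 CPM with SR9009 (log2 fold change −3.21, SE 0.52, edgeR adjusted p = 0.00793). The means were 154 ± 89.5 and 16.6 ± 4.87 CPM (SD, n = 4). Every SR9009 library was below every DMSO library, and the spread shrank with the level. Rsad2 encodes viperin, which makes a chain-terminating nucleotide, and Cmpk2 is its neighbour and supplies the substrate. Rsad2 had 201, 277, 53.6 and 109.9 CPM with DMSO and 35.3, 33.3, 27.5 and 24.1 CPM with SR9009 (log2 fold change −2.42, SE 0.52, edgeR adjusted p = 0.0367). Cmpk2 had 118, 185, 56.5 and 108 CPM with DMSO and 10.3, 15.8, 23.2 and 19.4 CPM with SR9009 (log2 fold change −2.76, SE 0.39, edgeR adjusted p = 0.00414). For both, the mouse with the lowest vehicle level, mouse 3, had the smallest fall.

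Mx1, a dynamin-like GTPase that blocks influenza virus, had 64.7, 103, 25.7 and 44.9 CPM with DMSO and 6.69, 10.4, 6.28 and 5.49 CPM with SR9009 (log2 fold change −3.04, SE 0.51, edgeR adjusted p = 0.00951). Oasl2, of the oligoadenylate synthetase family, had 332, 483, 219 and 307 CPM with DMSO and 52.7, 96.9, 119 and 93.4 CPM with SR9009 (log2 fold change −1.89, SE 0.29, edgeR adjusted p = 0.00524). Both sets of libraries were apart. Isg15, a ubiquitin-like modifier, had 57.5, 95.9, 23.7 and 45.8 CPM with DMSO and 0, 12.2, 11.0 and 9.82 CPM with SR9009; its fold change of −2.74 on the log2 scale (SE 0.74) did not pass (edgeR adjusted p = 0.130) and did (0.00494) once the SR9009 library of mouse 1, which had no Isg15 count, was left out, and with GC correction (0.0292).

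The guanylate-binding proteins and immunity-related GTPases, which coat and disrupt the vacuoles of intracellular pathogens, had 9 calls of 13 tested (10 of 13 in the reduced fit, 7 of 11 in the paired fit). Gbp2 had 55.1, 83.0, 19.9 and 29.7 CPM with DMSO and 16.2, 11.3, 6.56 and 6.03 CPM with SR9009 (log2 fold change −2.24, SE 0.40, edgeR adjusted p = 0.0147). Iigp1 had 15.0, 18.5, 4.45 and 7.76 CPM with DMSO and 1.60, 0.767, 0.644 and 0.508 CPM with SR9009 (log2 fold change −3.75, SE 0.63, edgeR adjusted p = 0.0101). Irgm1, a regulator of the other family members, had 135, 184, 98.9 and 132 CPM with DMSO and 36.8, 41.1, 62.2 and 46.3 CPM with SR9009 (log2 fold change −1.56, SE 0.31, edgeR adjusted p = 0.0251). In all 3 genes the groups were apart, and the vehicle cells of mice 1 and 2 held more of each transcript than those of mice 3 and 4.

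Among interferon-inducible chemokines, 2 of 5 fell (2 of 5 in the reduced fit, 2 of 3 in the paired fit). Cxcl10, a ligand of CXCR3 on T cells (ENSMUSG00000034855, GRCm39 chromosome 5, 92494497 to 92496748), had 72.3, 128, 21.02 and 51.0 CPM with DMSO and 7.46, 9.65, 2.01 and 2.30 CPM with SR9009 (log2 fold change −3.67, SE 0.72, edgeR adjusted p = 0.0252). The fall was present in every mouse. The other was Ccl12, at most 4.27 CPM in any library. In the 3 pairs of mice 2 to 4, Ifit3, Zbp1, Mx1, Gbp2, Iigp1 and Cxcl10 passed (adjusted p from 0.00389 to 0.0295), while Usp18, Rsad2, Cmpk2 and Irgm1 did not (from 0.0550 to 0.0650), with log2 fold changes of −2.47 to −1.48.

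**Figure D3:**
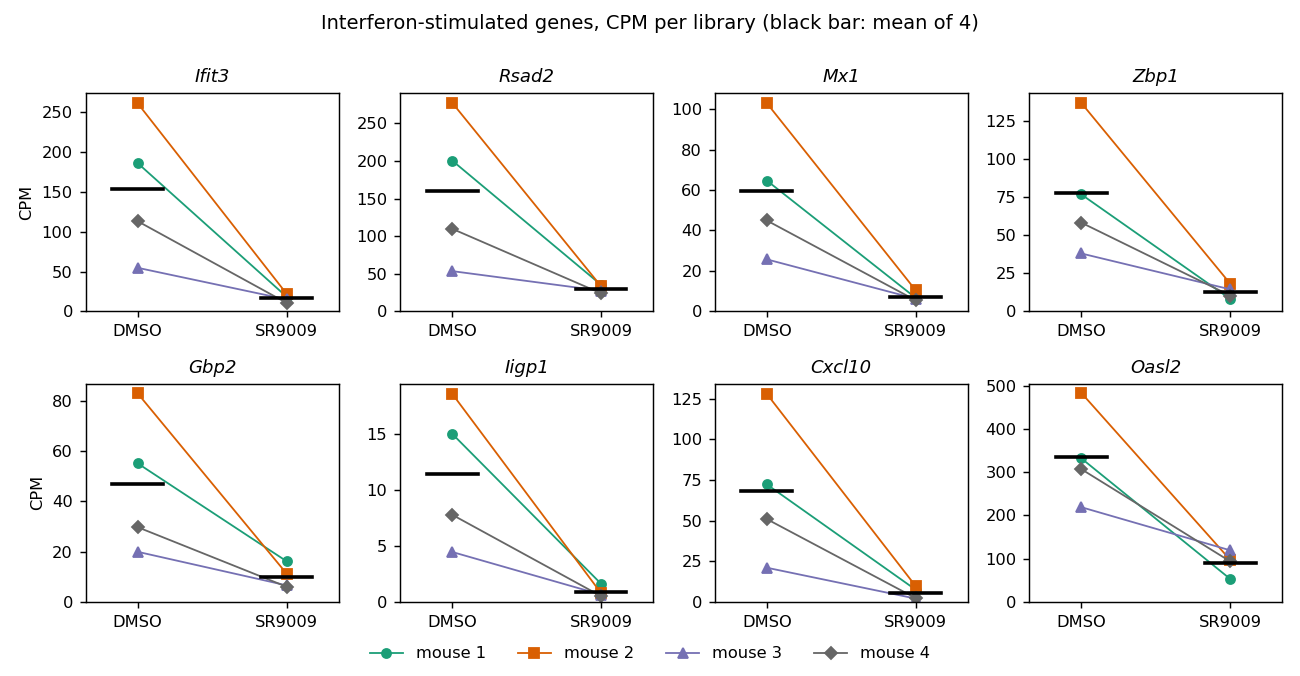
CPM (vertical axis, from 0) of 8 interferon-stimulated genes in the DMSO and SR9009 library of each mouse, joined by a line; the black bar is the mean of 4 libraries. The DMSO libraries spread widely, with mouse 2 highest, and the SR9009 libraries lie close together at a low level, for example 10.8 to 22.2 CPM for Ifit3.

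A few genes of antigen presentation and of the macrophage surface fell as well. Ciita, the master activator of MHC class II genes, had 17.3, 18.1, 11.7 and 8.78 CPM with DMSO and 0, 2.45, 1.73 and 0.711 CPM with SR9009 (log2 fold change −3.47, SE 0.67, edgeR adjusted p = 0.0232). Cd74, the class II invariant chain, had 241, 273, 113 and 81.2 CPM with DMSO and 41.5, 57.0, 36.3 and 22.0 CPM with SR9009 (log2 fold change −2.17, SE 0.49, edgeR adjusted p = 0.0470); leaving out the SR9009 library of mouse 1 gave an adjusted p of 0.0622, and GC correction 0.378. These 2 were the called members of the 13 tested in the class II and costimulation list (median log2 −1.03; 2 of 13 in the reduced fit too, Ciita and Cd40). The vehicle level of the class II genes differed by mouse: H2-Aa stood at 34.8, 37.4, 17.3 and 13.4 CPM with DMSO and 8.36, 11.5, 6.04 and 3.45 CPM with SR9009, without overlap, and was not called (adjusted p = 0.157). With mouse number in the model 5 of 13 were lower and in the pairs of mice 2 to 4, 6 of 12, H2-Aa among both (0.000468 and 0.00389). None of the 17 tested class I and immunoproteasome genes was called by edgeR. At an unadjusted edgeR p under 0.05, 8 were lower, where 3.72% of all genes were lower. DESeq2 called 1 lower and limma-voom none, and 1 was lower in the reduced fit and 5 in the paired fit.

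Cx3cr1, the fractalkine receptor gene (ENSMUSG00000052336, GRCm39 chromosome 9, 119730682 to 119898945), had 780.4, 657, 626 and 647 CPM with DMSO and 149.7, 247, 157 and 191 CPM with SR9009 (log2 fold change −1.86, SE 0.38, edgeR adjusted p = 0.0308). Its means were 678 ± 69.8 and 186 ± 44.5 CPM, and it had the highest level per length among the genes that fell, 146 FPKM with DMSO and 39.4 FPKM with SR9009 in the authors' deposited values. It was also called in the fit of the 8 libraries alone. Fcgr1, the high-affinity IgG receptor gene, had 327, 401, 176 and 217 CPM with DMSO and 44.2, 125, 92.5 and 74.1 CPM with SR9009 (log2 fold change −1.74, SE 0.33, edgeR adjusted p = 0.0204), and was the 1 called member of 5 Fcγ receptor genes (1 in both other fits). Tlr2, the receptor for bacterial lipopeptides, had 351, 418, 270.2 and 230.3 CPM with DMSO and 107, 154, 142 and 126 CPM with SR9009 (log2 fold change −1.26, SE 0.24, edgeR adjusted p = 0.0219), and was the 1 called member of 15 Toll-like receptor and adaptor genes (2 in the reduced fit, 3 in the paired fit). Il10, which encodes an anti-inflammatory cytokine, was low with DMSO at 4.23, 5.04, 2.61 and 2.89 CPM and lower with SR9009 at 0, 0.475, 0.846 and 0.948 CPM (log2 fold change −2.61, SE 0.52, edgeR adjusted p = 0.0261). For these 4 genes no SR9009 library reached the lowest DMSO library. Cx3cr1 and Il10 were also the called members of the lists of macrophage factors and receptors, 1 of 22, and of inflammatory mediators, 1 of 23, with the same numbers in the reduced fit. In the paired fit 7 of 22 macrophage genes were lower and 2 higher (Cebpa and Marco), and 2 of 17 inflammatory genes were lower and none higher.

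Among the genes that rose, those of the antioxidant response came first. NRF2, encoded by Nfe2l2, is held in the cytoplasm by KEAP1 until electrophiles or oxidants release it, and then binds antioxidant response elements with small MAF proteins. Of 45 tested genes of this response, 8 rose and none fell (median log2 0.57); without the SR9009 library of mouse 1, 14 of 46 rose and none fell, and in the pairs of mice 2 to 4, 24 of 46 rose and none fell. Without mouse 2, 3 or 4, 2, 1 and 1 members were called higher, and 1 of 46 in the fit of the 8 libraries alone. Their summed level was 17787, 18791, 14479 and 13585 CPM in the DMSO libraries and 23315, 29159, 33350.0 and 29779 CPM in the SR9009 libraries of mice 1 to 4, without overlap. Of these sums, the ferritin gene Fth1 alone gave 9622, 9833, 6431 and 5687 CPM with DMSO and 15436, 15537, 17281 and 14794 CPM with SR9009. The sum thus largely follows that gene. Without Fth1 the groups are no longer apart, because the remaining sum of the SR9009 library of mouse 1 lies below those of the DMSO libraries. The median log2 ratio within a mouse was −0.15, 0.58, 0.80 and 0.90 for mice 1 to 4, and 0.088 in mouse 1 after centring on genes of like GC content, a step chosen after seeing the data. Nfe2l2 itself was at 349, 379.5, 265 and 254 CPM with DMSO and 710.2, 315, 291 and 261 CPM with SR9009 and was not called (adjusted p = 0.694).

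The antioxidant response element, searched on both strands as TGAC, any 3 bases and GC, was found in 3 of 7 promoters (42.9%) of called members of the NRF2 list, in 8 of 44 promoters (18.2%) of its tested but uncalled members, in 4 of 36 promoters (11.1%) of all genes that rose and in 1475 of 12409 promoters (11.9%) of all tested genes. With few fixed bases the motif is frequent by letters alone. The promoters of 2 called members are shown with it in capitals, from build GRCm38.p6: chr3:122245307-122245556, plus strand for Gclm and chr1:21240335-21240584, plus strand for Gsta3.
Gclm: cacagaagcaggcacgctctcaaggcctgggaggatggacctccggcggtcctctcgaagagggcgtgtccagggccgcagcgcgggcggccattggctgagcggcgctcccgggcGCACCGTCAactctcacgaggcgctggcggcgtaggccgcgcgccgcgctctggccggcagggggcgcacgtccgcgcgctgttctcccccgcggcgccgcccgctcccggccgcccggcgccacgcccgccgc
Gsta3: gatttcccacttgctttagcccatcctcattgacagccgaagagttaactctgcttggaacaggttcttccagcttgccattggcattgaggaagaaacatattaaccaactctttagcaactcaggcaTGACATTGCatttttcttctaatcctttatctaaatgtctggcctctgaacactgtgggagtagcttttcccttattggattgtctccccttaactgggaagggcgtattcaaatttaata

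Gsta3, an α-class glutathione transferase gene (ENSMUSG00000025934, GRCm39 chromosome 1, 21310813 to 21335885), had the smallest p of all genes. It had 4.91, 3.81, 2.27 and 3.12 CPM with DMSO and 35.05, 23.6, 35.6 and 39.3 CPM with SR9009 (log2 fold change 3.24, SE 0.28, edgeR adjusted p = 5.77e-05), with means of 3.53 ± 1.12 and 33.4 ± 6.78 CPM. The lowest SR9009 library was several times the highest DMSO library. Of 5 tested genes of glutathione synthesis and recycling, 2 rose (2 in the reduced fit, 4 in the paired fit); Gclc, Gss and Slc7a11 were not called (adjusted p = 0.565, 0.620 and 0.189). Gclm, the modifier subunit of glutamate-cysteine ligase, had 113, 113, 98.4 and 90.9 CPM with DMSO and 933, 331, 412 and 410.4 CPM with SR9009 (log2 fold change 2.33, SE 0.37, edgeR adjusted p = 0.00734); the library of mouse 1 was far above the other 3 SR9009 libraries, and in the pairs of mice 2 to 4 the change was smaller (log2 1.90, adjusted p = 0.00389). Gsr, glutathione reductase, had 30.4, 30.9, 24.8 and 28.0 CPM with DMSO and 49.4, 74.4, 81.9 and 78.1 CPM with SR9009 (log2 fold change 1.31, SE 0.29, edgeR adjusted p = 0.0442).

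Peroxide and quinone defence accounted for 4 calls of 11 tested (4 in the reduced fit, 6 in the paired fit). Cat, catalase, had 298, 347, 300.1 and 279 CPM with DMSO and 1815, 619, 943 and 852 CPM with SR9009 (log2 fold change 1.79, SE 0.30, edgeR adjusted p = 0.0104); in the pairs of mice 2 to 4 it also passed (log2 1.34, adjusted p = 0.0164). Prdx1, a peroxiredoxin, had 627, 715, 679 and 767 CPM with DMSO and 1279, 1065, 1674 and 1774 CPM with SR9009 (log2 fold change 1.05, SE 0.23, edgeR adjusted p = 0.0433), and an adjusted p of 0.118 with GC correction. Prdx6 had 79.9, 73.2, 61.8 and 63.3 CPM with DMSO and 113, 155, 136 and 152 CPM with SR9009 (log2 fold change 1.00, SE 0.19, edgeR adjusted p = 0.0191). All SR9009 libraries were above all DMSO libraries in these 3 genes. Nqo1, the quinone reductase often read as a sign of NRF2 activity, was low, with 6.42, 5.08, 6.25 and 5.10 CPM with DMSO and 19.5, 12.7, 10.5 and 13.7 CPM with SR9009 (log2 fold change 1.30, SE 0.25, edgeR adjusted p = 0.0237).

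Fth1, the ferritin heavy chain that stores iron, had 9622, 9833, 6431 and 5687 CPM with DMSO and 15436, 15537, 17281 and 14794 CPM with SR9009 (log2 fold change 1.00, SE 0.20, edgeR adjusted p = 0.0261). It was the called gene with the highest level per length, 2209 FPKM with DMSO and 4345 FPKM with SR9009, followed by Prdx1 and Cat. The light chain gene Ftl1 was at 3148, 3597, 3298 and 2978 CPM with DMSO and 422, 6137, 6712 and 5663 CPM with SR9009, and passed where the SR9009 library of mouse 1 was not used (adjusted p = 0.00217). Hmox1, heme oxygenase 1, was at 189, 226, 189 and 213 CPM with DMSO and 55.8, 273, 524 and 653 CPM with SR9009 and passed in neither fit (0.670 and 0.622): with SR9009, mice 3 and 4 were well above their vehicle level, mouse 2 slightly above and mouse 1 below.

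**Figure D4:**
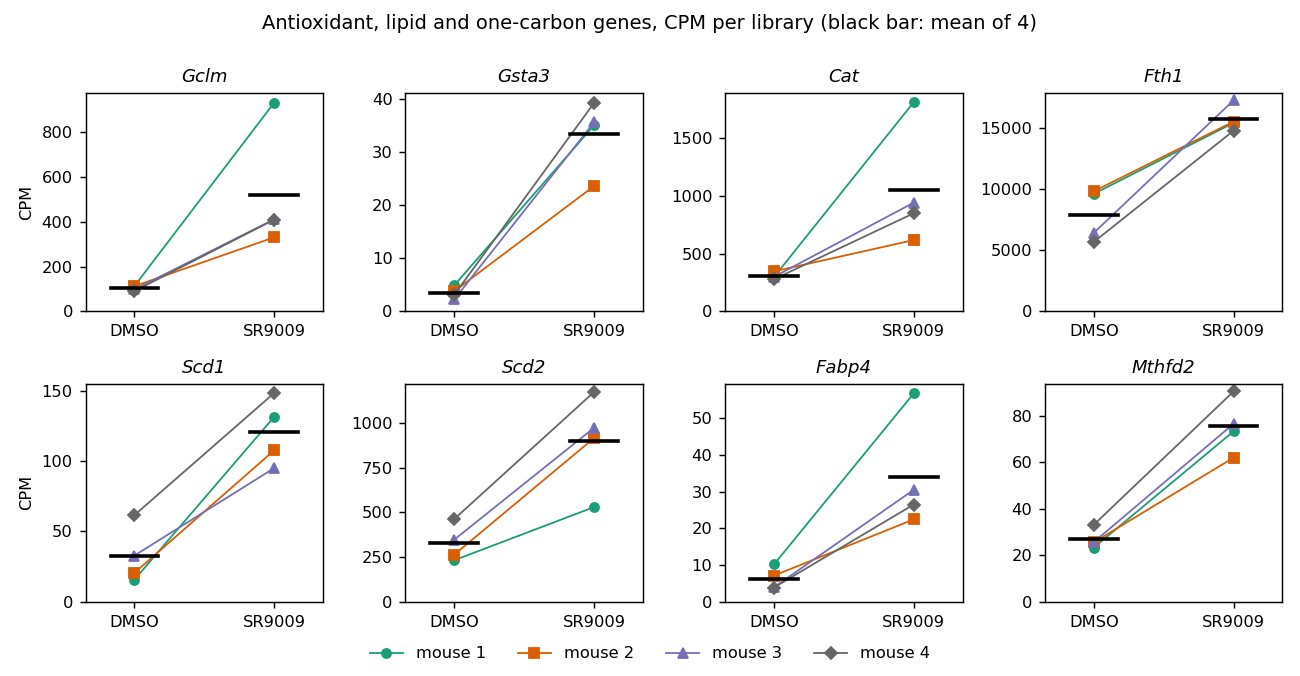
CPM (vertical axis, from 0) of 8 genes that rose, in the DMSO and SR9009 library of each mouse, joined by a line; the black bar is the mean of 4 libraries. The SR9009 library of mouse 1 is the highest for Gclm, Cat and Fabp4, at 933 CPM for Gclm, and lies among or below the others for Gsta3, Fth1, Mthfd2, Scd1 and Scd2.

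Genes of 4 lipid lists were also among those that rose. Sterol synthesis is driven by SREBP2, which is released when membrane cholesterol is low. Of 26 tested genes of this list 1 rose. The list median was 0.75, and the median log2 ratio within a mouse was 0.84, 0.81, 0.71 and 0.66 for mice 1 to 4, above 0 in each. Without the SR9009 library of mouse 1, 3 of 26 rose, and in the pairs of mice 2 to 4, 16 of 26 did, with none lower in any of these fits.

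The stearoyl-CoA desaturases, which make monounsaturated fatty acids, were the 2 called members of 19 tested fatty acid synthesis genes (2 in the reduced fit, 7 in the paired fit). Scd1 had 15.8, 20.6, 32.9 and 61.6 CPM with DMSO and 131, 108, 95.04 and 148 CPM with SR9009 (log2 fold change 1.88, SE 0.37, edgeR adjusted p = 0.0254). Scd2 had 233, 264, 348 and 463 CPM with DMSO and 529.8, 916, 973 and 1173 CPM with SR9009 (log2 fold change 1.46, SE 0.29, edgeR adjusted p = 0.0253). Both were apart between groups. Uptake and carrier genes added 3 calls of 7 (3 in both other fits). Fabp4, a fatty acid-binding protein regulated by PPARγ, had 10.2, 7.15, 3.98 and 3.91 CPM with DMSO and 56.8, 22.5, 30.5 and 26.5 CPM with SR9009 (log2 fold change 2.43, SE 0.43, edgeR adjusted p = 0.0119). Fabp5 had 219.5, 205, 164 and 177 CPM with DMSO and 276, 376, 520.1 and 459.7 CPM with SR9009 (log2 fold change 1.09, SE 0.23, edgeR adjusted p = 0.0345), and Cd36, the scavenger receptor for oxidised lipid, had 99.1, 100.2, 141 and 156 CPM with DMSO and 258, 190.2, 384 and 372 CPM with SR9009 (log2 fold change 1.28, SE 0.29, edgeR adjusted p = 0.0470); with GC correction the adjusted p of Cd36 was 0.139.

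These 3 genes rose in every mouse. Of the 8 LXR targets, Mylip, which encodes an E3 ubiquitin ligase, rose from 61.8, 60.6, 57.9 and 48.5 CPM with DMSO to 184, 121, 135 and 105 CPM with SR9009 (log2 fold change 1.25, SE 0.28, edgeR adjusted p = 0.0470); leaving out the SR9009 library of mouse 1 gave an adjusted p of 0.0631, and the model with mouse number 0.0558. In the reduced fit none of the 8 was called and in the paired fit 2. Abca1 and Abcg1, the cholesterol exporters, were not called (adjusted p = 0.802 and 0.958).

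The ATF4 response, which raises amino acid synthesis and import under stress, had 1 called member of 18. Mthfd2, a mitochondrial one-carbon enzyme, had 23.3, 25.6, 25.7 and 33.1 CPM with DMSO and 73.3, 62.0, 76.6 and 90.5 CPM with SR9009 (log2 fold change 1.49, SE 0.19, edgeR adjusted p = 0.00414). The increase was similar in all 4 mice. Other members differed between mice. Asns, asparagine synthetase, had 5.60, 5.85, 6.82 and 10.4 CPM with DMSO and 15.2, 18.6, 53.0 and 71.6 CPM with SR9009 (adjusted p = 0.0573, and 0.00108 with mouse number in the model). Phgdh, the entry enzyme of serine synthesis, had 2.14, 2.08, 4.08 and 5.23 CPM with DMSO and 1.05, 11.3, 41.9 and 56.9 CPM with SR9009 (adjusted p = 0.148, and 0.0132 if the SR9009 library of mouse 1 was left out). The SR9009 libraries of mice 3 and 4 were high for both and that of mouse 2 was intermediate. Without the SR9009 library of mouse 1, 6 of 18 rose, and in the pairs of mice 2 to 4, 13 of 18, with none lower. The median log2 ratio within a mouse was −0.77, 0.87, 0.96 and 1.04 for mice 1 to 4. After centring on genes of like GC content it was 0.59 in mouse 1, with 12 of 18 members higher. With GC correction Asns and Phgdh passed (adjusted p = 0.0358 and 0.0281).

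**Figure D5:**
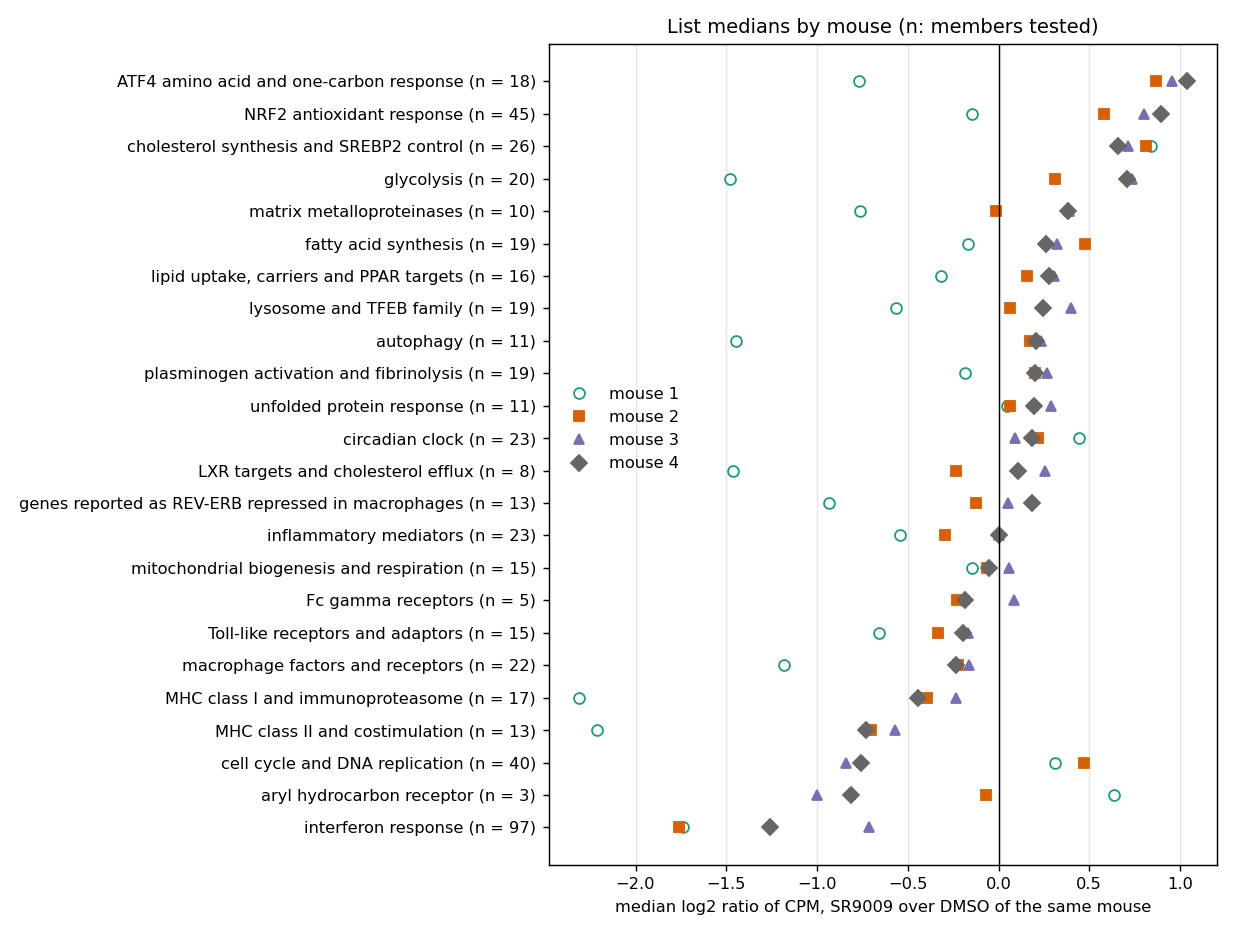
Median log2 ratio of CPM in SR9009 over DMSO of the same mouse (horizontal axis) for each of 24 gene lists (rows, with the number of members tested), 1 symbol per mouse, mouse 1 open. Interferon, class II, class I, Toll-like receptor and macrophage factor genes lie below 0 in all 4 mice. Cholesterol, clock and unfolded protein response genes lie above 0 in all 4. NRF2, ATF4, glycolysis, fatty acid synthesis, lipid uptake, plasminogen, lysosome and autophagy genes lie above 0 in mice 2 to 4 and below 0 in mouse 1. Centred on genes of like GC content, the mouse 1 values of these lists are, in this order, 0.088, 0.59, −0.26, 0.39, 0.094, −0.21, −0.27 and −0.69.

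The receptors of SR9009 and their target Arntl were not called. Nr1d1 had 8.10, 7.58, 7.32 and 7.66 CPM with DMSO and 8.50, 11.1, 6.08 and 5.18 CPM with SR9009. Nr1d2 had 70.7, 69.4, 68.8 and 63.6 CPM with DMSO and 175, 61.9, 62.1 and 50.3 CPM with SR9009. Arntl, which encodes BMAL1 and is repressed by REV-ERB in many tissues, had 17.4, 17.5, 12.3 and 14.1 CPM with DMSO and 36.2, 15.1, 12.8 and 13.3 CPM with SR9009. In Nr1d2 and Arntl the SR9009 library of mouse 1 was the highest of all 8 and the other 3 lay near or below the vehicle level. None of the 3 was called (edgeR adjusted p = 0.994, 0.719 and 0.775; 1.00, 0.819 and 0.997 without that library). In the pairs of mice 2 to 4, the log2 fold changes were −0.12 (SE 0.23), −0.25 (SE 0.08) and −0.11 (SE 0.12).

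Of the 23 tested clock genes, Bhlhe40, a repressor of BMAL1 and CLOCK activity, was the 1 that rose (none in the reduced fit and 4 in the paired fit). It had 12.2, 8.08, 7.29 and 8.32 CPM with DMSO and 27.0, 20.6, 20.0 and 25.4 CPM with SR9009 (log2 fold change 1.38, SE 0.30, edgeR adjusted p = 0.0426), and an adjusted p of 0.0549 without the SR9009 library of mouse 1. Its paralogue Bhlhe41 had 73.7, 75.9, 68.7 and 75.9 CPM with DMSO and 168, 126, 169.6 and 157 CPM with SR9009, with separate groups and an adjusted p of 0.209. In the pairs of mice 2 to 4, Bhlhe40, Bhlhe41, Per2 and Rora were higher (adjusted p = 0.00397, 0.0101, 0.0396 and 0.0280). Of 13 genes reported as REV-ERB-repressed in macrophages, Cx3cr1 and Il10 fell and the other 11 were not called (2 of 13 lower in the reduced fit, 3 of 12 in the paired fit). Among those, Mmp9 was at 3.73, 2.69, 0.936 and 0.658 CPM with DMSO and 0, 3.32, 0.564 and 0.813 CPM with SR9009, and Ccl2 at 1.96, 4.81, 3.58 and 8.88 CPM with DMSO and 0, 0.804, 4.07 and 10.5 CPM with SR9009, both with overlapping groups. Il6 had at most 3 counts in any of the 8 libraries.

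The series title names fibrinolytic activity. None of the 19 tested genes of plasminogen activation and fibrinolysis passed in the fit of all libraries by edgeR, DESeq2 or limma-voom, and at an unadjusted edgeR p under 0.05, 3 were higher and 1 lower. In the pairs of mice 2 to 4, 3 of 14 were higher and 1 lower, and in the reduced fit none of 19 was called. Plau, the urokinase gene, had 25.8, 22.8, 30.9 and 44.2 CPM with DMSO and 22.2, 38.4, 48.7 and 68.1 CPM with SR9009, and rose within mice 2 to 4 (log2 0.64, adjusted p = 0.0101). Plaur, its receptor, had 16.2, 11.9, 8.02 and 10.7 CPM with DMSO and 8.78, 24.0, 18.7 and 26.6 CPM with SR9009 and rose likewise (log2 1.15, adjusted p = 0.00633). Procr, the endothelial protein C receptor gene, had 3.41, 3.69, 2.54 and 4.21 CPM with DMSO and 2.02, 5.99, 8.42 and 11.2 CPM with SR9009 (log2 1.25, adjusted p = 0.0289). In all 3 genes the library of mouse 1 went the opposite way, and the adjusted p over all libraries was 0.656, 0.645 and 0.474. Serpinb8, a protease inhibitor gene, was the one that fell (log2 −0.57, adjusted p = 0.0128). Of 10 matrix metalloproteinase genes, Mmp12, macrophage elastase, rose from 28.1, 24.6, 23.1 and 30.5 CPM with DMSO to 66.8, 54.7, 116 and 151 CPM with SR9009 (log2 fold change 1.87, SE 0.38, edgeR adjusted p = 0.0305). With GC correction its adjusted p was 0.0607; 1 of 10 rose in the reduced fit and 2 in the paired fit.

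Proliferation genes split by mouse. The vehicle cells of mice 3 and 4 held more replication transcripts than those of mice 1 and 2: Mcm5, a subunit of the replicative helicase, was at 26.2, 33.4, 114 and 143 CPM with DMSO and 10.0, 49.1, 67.4 and 81.9 CPM with SR9009. Mki67 was at 182, 209, 466 and 427 CPM with DMSO and 811, 231, 208 and 262 CPM with SR9009. The median log2 ratio over the 40 cell cycle genes was 0.31, 0.47, −0.84 and −0.76 for mice 1 to 4, above 0 in mice 1 and 2 and below 0 in mice 3 and 4. Gadd45a, a growth arrest gene, was the 1 called member of 40 (1 in both other fits), from 6.69, 5.73, 6.82 and 6.28 CPM with DMSO to 49.3, 14.5, 22.5 and 17.7 CPM with SR9009 (log2 fold change 2.02, SE 0.42, edgeR adjusted p = 0.0316). In the remaining lists (glycolysis, the unfolded protein response, mitochondrial genes, lysosome, autophagy and the aryl hydrocarbon receptor) no gene was called by edgeR among 20, 11, 15, 19, 11 and 3 tested. At an unadjusted p under 0.05 these lists had 4, 1, 0, 2, 0 and 1 genes. That of the aryl hydrocarbon receptor list was lower and the others were higher. Over all genes, 7.96% were higher and 3.72% lower at that threshold. DESeq2 called 1 glycolysis and 1 lysosome gene and limma-voom none. In the pairs of mice 2 to 4, 9 of the 20 glycolysis genes rose and none fell; in mouse 1 their median log2 ratio was −1.48, and −0.26 after centring on genes of like GC content. In the reduced fit 3 glycolysis genes and 1 lysosome gene rose. In the paired fit 1 gene each of the unfolded protein response, lysosome and autophagy lists rose, and 1 each of the last 2 fell.

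Outside the lists 23 called genes were higher and 33 lower. The largest increase among coding genes that averaged 5 CPM or more was in Ednrb, the endothelin B receptor gene (ENSMUSG00000022122, GRCm39 chromosome 14, 104052061 to 104081838), with 2.82, 4.42, 2.87 and 2.14 CPM with DMSO and 19.3, 18.6, 17.7 and 16.7 CPM with SR9009 (log2 fold change 2.56, SE 0.44, edgeR adjusted p = 0.0118). Its 4 SR9009 libraries were close to each other and far from the DMSO libraries, including that of mouse 1. Rnf128, an E3 ubiquitin ligase gene, had 95.9, 97.7, 86.9 and 94.6 CPM with DMSO and 323, 208, 347 and 319.9 CPM with SR9009 (log2 fold change 1.68, SE 0.23, edgeR adjusted p = 0.00414). Esd, S-formylglutathione hydrolase, had 185, 169, 144 and 155 CPM with DMSO and 376, 338, 460.2 and 449 CPM with SR9009 (log2 fold change 1.31, SE 0.19, edgeR adjusted p = 0.00517). Il7r, the interleukin 7 receptor gene, had 44.9, 31.0, 34.0 and 36.4 CPM with DMSO and 150.3, 62.0, 105 and 86.8 CPM with SR9009 (log2 fold change 1.47, SE 0.29, edgeR adjusted p = 0.0261).

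The other 8 of the 12 largest increases were Prkar2b, Slc22a4, Htr2b, Rgs1, Tmeff1, Pdpn, Lrrc27 and Lilrb4b, with log2 fold changes of 1.11 to 1.89; with GC correction Lilrb4b did not pass (adjusted p = 0.0899). For Prkar2b, a regulatory subunit of protein kinase A, and Rgs1, a brake on G protein signalling, the SR9009 library of mouse 1 stood at 208 and 33.6 CPM, far above the 63.5 to 76.8 and 13.4 to 16.3 CPM of the other 3. Both passed without it (0.00638 and 0.0169). Htr2b, a serotonin receptor gene, did not (0.0514).

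The 12 largest decreases outside the lists were led by Ifi206, a p200 gene, with 27.4, 55.3, 15.8 and 26.4 CPM with DMSO and 7.18, 3.98, 3.87 and 3.08 CPM with SR9009 (log2 fold change −2.80, SE 0.39, edgeR adjusted p = 0.00414). Gm4951, an interferon-inducible GTPase gene, had 11.0, 13.4, 6.05 and 10.5 CPM with DMSO and 1.81, 1.68, 1.85 and 1.49 CPM with SR9009 (log2 fold change −2.58, SE 0.38, edgeR adjusted p = 0.00521). Rnf213, Gvin2, Xaf1, Parp12 and Sp110, which are known to respond to interferon, had log2 fold changes of −1.74 to −1.29. The membrane-spanning genes Ms4a4c, Ms4a6b and Ms4a6c fell, with log2 fold changes of −2.29, −1.40 and −1.42. Ms4a6b had 335, 396, 268 and 259.6 CPM with DMSO and 146, 133, 108 and 90.7 CPM with SR9009, with separate groups. Kcnj10, a potassium channel gene, had 102, 113, 92.6 and 67.8 CPM with DMSO and 29.3, 52.9, 26.4 and 22.2 CPM with SR9009 (log2 fold change −1.52, SE 0.27, edgeR adjusted p = 0.0119). Pnp, purine nucleoside phosphorylase, completed the 12 (log2 −1.10). The Ms4a genes are similar in sequence, and the split of reads between them is uncertain.

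Mouse 1 took no part in the fit of the pairs of mice 2 to 4 and so gave a separate look at its calls. Of the 500 genes lower there, 385 (77.0%) were also lower with SR9009 in mouse 1, where 55.4% of 12995 genes tested in both fits were lower. Of the 496 higher, 254 (51.2%) were higher in mouse 1, against 44.6% of those genes. When the log2 ratio of mouse 1 was centred on the median of genes of like GC content, the shares were 83.5% of 496 lower genes and 70.6% of 493 higher genes with a GC value, each against 49.98% of all genes with one. For the interferon list, 86 of 97 genes were lower in mouse 1 as measured and 87 of 97 after centring. For the NRF2 list, 20 of 45 were higher as measured and 27 of 45 after centring. As measured, this share was close to the 44.6% of all genes, so mouse 1 showed no NRF2 shift beyond them. After centring, the share to compare with was 49.98%. 

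Whether SR9009 acted differently with LPS was tested as the interaction, the effect of SR9009 with LPS minus that without. 1 gene of 13438 (0.00744%) passed, Gm5150, which itself was not called with SR9009 alone. With mouse number in the model 15 genes passed, and 41 when the SR9009 library of mouse 1 was dropped. For the interferon genes shown as promoters the interaction was above 0, and none passed. It was 2.20 for Rsad2 and 1.16 for Gbp2 (edgeR adjusted p = 0.462 and 0.693). Ifit3 was at 1619 ± 644 CPM with LPS and 1648 ± 966 CPM with SR9009 and LPS (SD, n = 4), and its interaction was 3.23 (SE 0.69, edgeR adjusted p = 0.155). Cxcl10 was at 5052 ± 2364 and 5899.9 ± 4355 CPM, with an interaction of 3.90 (SE 0.95, edgeR adjusted p = 0.224). For Gsta3, at 1.99 ± 0.462 and 21.1 ± 4.14 CPM, it was 0.17 (SE 0.38, edgeR adjusted p = 0.974). A different effect of SR9009 on these genes with LPS was not shown at the adjusted threshold. Over the 97 tested members of the interferon list the median interaction was 1.01, against 0.0007 over all tested genes. None of these members passed.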

How the data were processed

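RNA sequencing libraries made by poly(A) capture came with HISAT2 as the named tool and GRCm39 (mm39) as the build, per the submitters' processing notes. The counter and its strand setting were not given in the sources used here. Per gene, the deposited table holds raw read counts made by the authors for 56748 genes, and the FPKM values, scaled by the authors to gene length and depth, were used only to rank levels between genes. Members and lists were chosen with earlier results of these data known.

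Counts of all 16 libraries were fitted with edgeR 4.0.16 (robust quasi-likelihood, TMM scaling, 1 mean per group, filterByExpr with a minimum count of 10) in R 4.3.3. A total of 13438 genes were tested, with Benjamini-Hochberg adjustment and a threshold of 0.05. Each SE was obtained from the fold change and its F statistic. The procedure was tested on simulated data. These held no differences between mice and no library that followed GC content, so they cannot show how either affects the calls. Transcript GC content was available for 98.7% of tested genes. Alternatives were DESeq2 1.42.0, limma-voom (limma 3.58.1), other scalings and filters, GC correction, mouse number as a block, and fewer libraries. List members were named by role; outside the lists, the 12 largest called changes in each direction among coding genes that averaged 5 CPM or more and moved the same way in 4 of 4 mice were named, with the 3 called genes of highest FPKM in each direction and the genes called in the fit of the 8 libraries alone.

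The labels give each mouse number to 1 library per group, so numbers pair libraries by animal. Deviations from the group means were correlated across genes between DMSO and SR9009 libraries. For the same mouse, r was 0.147, 0.244, 0.153 and 0.240 for mice 1 to 4. Between different mice it ran from −0.310 to 0.192. The DMSO library of mouse 1 was closest to the SR9009 library of mouse 2 (0.160), and that of mouse 3 to that of mouse 4 (0.192). For these mice the correlation does not single out the same animal. Over all 4 groups, the median r was 0.249 for 24 pairs of the same mouse (0.0809 to 0.560). For 72 pairs that differed in mouse and group it was −0.0899 (−0.567 to 0.522). Genes are not independent replicates. Promoters are those of RefSeq on GRCm38.p6, matched by symbol for 9728 of 13436 tested gene names. Some tested genes are not reported here. Totals of 12616442 to 24214863 counts limit the precision for genes of low level.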

Additional observations from a re-analysis of the deposited data

Results flagged for a closer look

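The SR9009 library of mouse 1 lay outside the range allowed by Dixon's test at the 95% level among the 4 SR9009 libraries in the number of genes detected (13298) and in the number of tested genes without a count (1368). The same test on the CPM of 87 named genes in both groups, 174 sets of 4 libraries, picked out 14 sets, and chance alone gives about 1 in 20. All 14 were this library. It was high for Gclm (933 CPM), Nr1d2 (175 CPM), Arntl (36.2 CPM), Prkar2b (208 CPM), Rgs1 (33.6 CPM), Tmeff1 (32.8 CPM), Nfe2l2 (710.2 CPM), Rora (69.7 CPM) and the p200 genes Ifi203 (131 CPM), Ifi204 (164 CPM), Ifi209 (123 CPM) and Mndal (182 CPM), and low for Pnp (44.2 CPM) and Ftl1 (422 CPM). Some of these genes were named after their values were seen.

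The effect of SR9009 on Gm5150 differed with LPS by −2.72 on the log2 scale (SE 0.36, edgeR adjusted p = 0.0168 for the interaction). Gm5150 had a mean of 3.04 CPM with DMSO, 2.04 with SR9009, 23.8 with LPS and 2.41 with SR9009 and LPS.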

How the results depend on the processing

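Against 42 genes higher and 76 lower with SR9009, DESeq2 gave 128 and 203, GC correction 101 and 137, the replicate block 69 and 129, and the block with GC correction 216 and 253. Testing without a filter gave 23 higher. The 8 libraries alone gave 2 and 2, and 0 and 0 with the block (edgeR; 763 at an unadjusted p under 0.05). Without the SR9009 library of mouse 1 there were 95 and 147, and 235 and 351 with the block; the pairs of mice 2 to 4 gave 496 and 500. Leaving out 1 mouse gave 1 to 76 higher and 0 to 118 lower, and leaving out 1 library 10 to 95 and 25 to 147. The interaction, 1 gene, became 103 with DESeq2, 0 with limma-voom (847 at an unadjusted p under 0.05), 15 with the block, 28 with GC correction, 135 with both, 41 without the SR9009 library of mouse 1 and 271 with the block as well, and 0 to 41 when a mouse or a library was left out. The causes were not tested.

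Folds were recomputed for 87 named genes under 25 settings, and none of the 64 called ones reversed. Of the uncalled ones, 6 did. The Nr1d1 log2 fold change was −0.00473 with RLE scaling, −0.0386 without a filter, −0.0046 with DESeq2, −0.0613 with limma-voom, −0.025 in the 8 libraries alone and −0.0861 with the block there. It was −0.0793 without the SR9009 library of mouse 1, −0.14 with the block as well and −0.12 in the pairs of mice 2 to 4, and ranged from −0.23 to 0.16 when 1 mouse or library was left out. The Nr1d2 log2 fold change was −0.0261 with the block and GC correction, −0.20 without that library and with the block, −0.25 in the pairs, and −0.27 to 0.54 with 1 mouse or library left out. The Arntl log2 fold change was −0.0384 without that library and with the block, −0.11 in the pairs, and −0.20 to 0.50 with 1 mouse or library left out. Adding the replicate block to all 16 libraries ended the call of Mylip and added those of Asns, H2-Aa, Ifi203 and Ifi209 among these genes. The Nfe2l2 log2 fold change was −0.15 without that library, −0.16 with the block as well, −0.0636 in the pairs and −0.0983 without mouse 1, and −0.15 to 0.54 with 1 mouse or library left out. The Abcg1 log2 fold change was 0.15 with GC correction with or without the block, 0.11 without that library, 0.13 with the block as well, 0.0075 in the pairs, 0.0096 without mouse 1 and 0.015 without the DMSO library of mouse 3, and −0.27 to 0.11 with 1 mouse or library left out. The Ftl1 log2 fold change was −0.039 with limma-voom.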

Other observations

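Gapdh, a gene with many processed copies, was listed at 0.836 to 133 CPM across the 8 libraries, with 112 and 133 CPM in the DMSO and SR9009 libraries of mouse 2 and at most 13.6 CPM in the other 6. Lyz2, a macrophage lysozyme gene with a close paralogue, was at 21.2 to 39.5 CPM. The levels of both genes are uncertain. Why Gapdh was higher in both libraries of mouse 2 was not tested.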
